A study of Mus musculus with 12 samples.

Results

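The genes described here are those whose mouse symbol is Zfp followed by a number, leaving out Zfp36, which encodes an RNA-binding protein with a different kind of zinc finger. The deposited table holds 332 such entries among its 24062, and the 270 with a value above 10 in at least 3 of the 12 libraries were taken as members. The other 62 stayed under that level, 11 of them without a read in any library. The level rule was met in all 12 libraries by 231 members and in fewer by 39. For 6 members it was met only with the help of 1 group, since fewer than 3 libraries outside that group passed the level. One of these, Zfp366, was above 10 in all 3 CMA libraries and in 1 library with both agents, and no other of the 6 was called in any comparison. Just inside it stood Zfp820, Zfp286 and Zfp541, with a third-highest value of 10.15, 10.15 and 10.4. Just outside stood Zfp647, Zfp651 and Zfp473, with 9.868, 9.868 and 9.323.

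The libraries hold messenger RNA of primary bone marrow derived macrophages from wild-type C57Bl/6 mice at passage 1, in 4 groups of 3. Cells received no stimulation, the STING inhibitor C-178, the STING agonist CMA, or C-178 and CMA together, and the design text gives 2 h for the treatments. STING is the adaptor protein that relays the sensing of cytosolic DNA to interferon and NF-κB responses. CMA is a small molecule that activates mouse STING, and C-178 is a small molecule that binds mouse STING covalently and blocks it. The comparisons ask what the agonist changed alone and in the presence of the inhibitor. The labels do not say whether the 3 libraries of a group came from separate mice or cultures, so the tests measure the spread between these libraries, which may be technical. The labels mention no vehicle.

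Most proteins named Zfp carry arrays of C2H2 zinc fingers, small folds in which a pair of cysteines and a pair of histidines hold a zinc ion, and each finger can read a few bases of DNA. A large share also carries a KRAB domain, which recruits the co-repressor Trim28 and, through it, the histone methyltransferase Setdb1 and heterochromatin proteins. KRAB zinc finger proteins are known for silencing retroelements and for protecting imprinted genes, and their genes lie in tandem clusters that grew by duplication. A smaller class carries a SCAN domain, through which the proteins pair with one another. Other members act outside transcription, in mitosis, splicing or ribosome quality control.

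Among the 270 members, 266 had a coding sequence in the annotation, from which proteins were translated. A KRAB A-box, the stretch of the KRAB domain that binds Trim28, was found in 150 and none in 116, a SCAN box in 12, and both in 3. The median number of C2H2 fingers was 12 with a KRAB A-box and 7.5 without, and the highest was 36, in Zfp142. No finger of the searched spacing was found in 5 members, Zfp703 among them. Of the 268 members with a position in mm10, 184 lay within 1 Mb of another and formed 35 clusters, which held 131 of the 150 KRAB members. Chromosome 7 carried 71 members, chromosome 17 carried 35 and chromosome 13 carried 28. The mean over all libraries had a median of 99.42 normalised counts over the members (range 6.929 to 4634), against 278.5 over the 11440 genes that passed the same level rule and were tested. KRAB members were the lower class, with a median of 63.84 normalised counts against 208.2 for the others. Their transcripts had a median GC content of 42.0%, against 51.2% for the other members and 49.9% for all tested genes. Members of a cluster often resemble each other in sequence, so reads may have been split or lost among them in a way the files do not show.

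A promoter window, the 250 bases before a RefSeq transcript start in GRCm38.p6, was given for 225 of the 270 members. The following 5 windows belong to members on which the results turn. Zfp213, Zfp945 and Zfp281 were higher with CMA, and Zfp329 and Zfp810 were lower. Capitals mark a match to a searched motif, here the interferon response element core (GAAA, NN and GAAA in a row) in Zfp213 and the AP-1 motif TGANTCA in Zfp329. The other 3 windows held no match to the 5 motifs searched.
Zfp213 (chr17:23564227-23564476, minus strand): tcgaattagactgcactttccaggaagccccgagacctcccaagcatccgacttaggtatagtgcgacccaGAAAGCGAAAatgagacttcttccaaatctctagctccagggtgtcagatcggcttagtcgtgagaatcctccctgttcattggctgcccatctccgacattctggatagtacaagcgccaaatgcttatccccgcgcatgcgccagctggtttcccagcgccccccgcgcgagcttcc
Zfp945 (chr17:22867135-22867384, minus strand): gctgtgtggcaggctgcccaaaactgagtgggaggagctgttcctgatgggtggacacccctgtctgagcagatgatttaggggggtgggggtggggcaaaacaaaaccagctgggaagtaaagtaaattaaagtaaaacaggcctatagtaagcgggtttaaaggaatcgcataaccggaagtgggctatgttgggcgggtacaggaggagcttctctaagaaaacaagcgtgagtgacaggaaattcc
Zfp281 (chr1:136624651-136624900, plus strand): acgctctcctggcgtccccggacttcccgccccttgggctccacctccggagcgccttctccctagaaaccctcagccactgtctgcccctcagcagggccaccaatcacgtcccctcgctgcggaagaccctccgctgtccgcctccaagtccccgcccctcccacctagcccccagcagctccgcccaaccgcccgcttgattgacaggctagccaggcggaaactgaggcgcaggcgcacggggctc
Zfp329 (chr7:12818861-12819110, minus strand): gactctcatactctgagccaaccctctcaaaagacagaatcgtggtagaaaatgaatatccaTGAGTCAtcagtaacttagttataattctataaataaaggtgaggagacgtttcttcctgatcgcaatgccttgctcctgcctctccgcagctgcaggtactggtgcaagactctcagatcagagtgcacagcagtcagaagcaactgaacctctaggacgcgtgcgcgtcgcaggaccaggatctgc
Zfp810 (chr9:22307639-22307888, minus strand): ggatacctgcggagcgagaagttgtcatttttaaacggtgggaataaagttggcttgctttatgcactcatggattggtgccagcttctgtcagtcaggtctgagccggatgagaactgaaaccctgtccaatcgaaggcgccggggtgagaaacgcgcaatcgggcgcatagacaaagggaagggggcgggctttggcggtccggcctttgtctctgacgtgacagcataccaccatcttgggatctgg

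The 5 motifs were searched on both strands, and they do not overlap in the windows shown. The interferon response element core occurred in the windows of 3 of 225 members (1.33%), against 3.47% of 8728 tested genes with a window and 3.46% of all 27025 genes with one. The NF-κB motif (GGG, NN and TTTCC in a row) occurred in 6 members (2.67%, against 1.88% of tested and 1.65% of all genes). The AP-1 motif occurred in 8 (3.56%, against 5.5% and 7.82%). The cyclic AMP response element TGACGTCA occurred in 9 (4.0%, against 3.13% and 1.77%). The E-box CACGTG occurred in 17 (7.56%, against 10.1% and 6.86%). All 6 members with an NF-κB match had a KRAB A-box. The median GC content of the windows was 55.2% in members and 59.9% in tested genes. A match describes the letters of the window and says nothing about binding in these cells.

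Depth differed between libraries, from 7.05 to 36.4 M reads, and the deepest were C-178 replicate 1 and C-178 plus CMA replicate 1. It also went with treatment, at 13.9 to 17.4 M reads without stimulation and 7.13 to 7.83 M with CMA. In these groups 1 read stood for 0.597 to 0.760 and for 1.65 to 1.97 normalised counts. The part of depth in the changes of single members was not tested. The labelled agonist responses were present, since Ifnb1 rose from no read in the unstimulated libraries to a mean of 1755 normalised counts with CMA and stood at 59.35 with both agents. Cxcl10 rose from 96.93 to 82480 with CMA and stood at 30810 with both agents, against 73.27 with C-178 alone. A response to CMA therefore remained with C-178 present, and it differed in size between these genes. The macrophage markers were high throughout, 11 of 12 being measured with summed levels of 481300 to 682600 normalised counts. The summed level of 13 fibroblast markers was 1602 to 1728 normalised counts without stimulation, 1946 to 2302 with C-178, 2087 to 3878 with CMA and 924.4 to 2416 with both, and none of them was at 0 in a whole group. The part of such cells in the member values was not tested. In bulk libraries, fewer cells of a type and less RNA per cell cannot be told apart.

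With CMA alone, more Zfp genes fell than rose. Against unstimulated cells, 84 of the 270 members fell (31.1%) and 19 rose (7.04%), at an adjusted p under 0.05 from limma with Benjamini-Hochberg adjustment over all tested genes. Over all tested genes, 17.9% fell and 19.4% rose. The median log2 change of the members was -0.37, with quartiles at -0.76 and 0.02, against a median of -0.01 for all tested genes. It was below 0 in 200 members and above 0 in 70. The libraries of the 2 groups did not overlap in 126 members that were lower and 38 that were higher with CMA, against 30.9% and 31.0% of all tested genes. Among the members that fell, 49 did so 2-fold or more, and 10 of those that rose did. Quantile normalisation, which moved the median of all genes to -0.11, gave 86 members lower and 22 higher, with 2667 of all genes lower and 1953 higher in place of 2047 and 2224. Weighting libraries by their quality gave 144 members lower (53.3%) and 42 higher (15.6%), against 32.4% and 32.1% of all tested genes in that fit.

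In each single library the same displacement was seen. Set against the unstimulated mean, the median log2 level of the members was -0.28, -0.416 and -0.339 in the 3 CMA libraries. It was -0.488, -0.297 and -0.302 with C-178 plus CMA, and -0.011, 0.227 and 0.088 with C-178 alone. The 6 libraries with CMA therefore all lay below the 6 without it, and C-178 replicate 2 stood above the rest. The members took 0.5812% ± 0.00586 (SD, n = 3) of all normalised counts without stimulation, 0.6105% ± 0.03 with C-178, 0.4195% ± 0.00801 with CMA and 0.4064% ± 0.0376 with both. Much of the difference between unstimulated and CMA libraries lies in the denominator. Total normalised counts were 10.229 to 10.573 M without stimulation and 12.899 to 14.064 M with CMA. The summed level of the members was 60480 ± 878 normalised counts without stimulation and 56670 ± 1800 with CMA (SD, n = 3), and these groups did not overlap. It was 63570 ± 4870 with C-178 and 49570 ± 6060 with both agents, and these did not overlap either. The plot of members by library shows both the shift of the median and the width of the distribution.

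**Figure D1:**
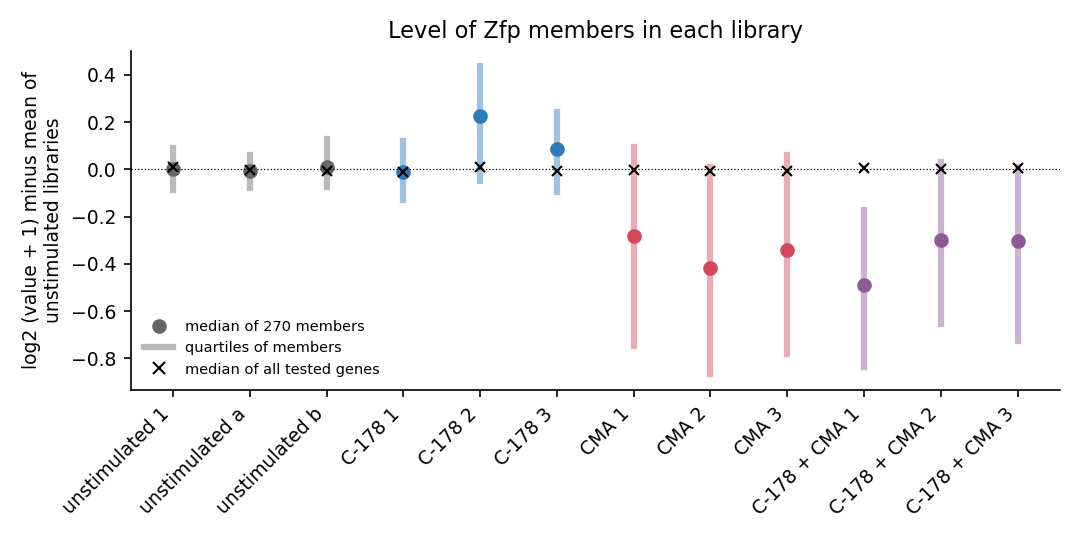
Log2 level of the Zfp members in each of the 12 libraries, relative to the mean of the 3 unstimulated libraries. Points are medians over 270 members, bars run from their lower to their upper quartile, and crosses are medians of all tested genes. The 6 libraries with CMA have member medians between -0.488 and -0.28, while the crosses stay near 0.

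Members of both structural classes fell with CMA. Of 150 KRAB members 47 fell and 11 rose, with a median log2 change of -0.40. Of 116 members without a KRAB A-box 36 fell and 8 rose, with a median of -0.32. Of 12 SCAN members 2 fell and 1 rose. Members in clusters had a median of -0.43 (60 of 184 fell and 14 rose), and those outside had -0.21 (23 of 84 fell and 5 rose). By number of fingers, the medians were -0.33 for 0 to 4, -0.33 for 5 to 9, -0.44 for 10 to 14 and -0.28 for 15 or more. These differences between classes are descriptions and were not tested.

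The displacement was also seen within bands of mean level. The 86 members below 50 normalised counts had a median log2 change of -0.55, against -0.10 for all tested genes in that band. For members between 50 and 200 normalised counts the median log2 change with CMA was -0.38, against -0.10. Between 200 and 1000 it was -0.20, against 0.00 for all genes. The 9 members above 1000 had a median of 0.00, against 0.11 for all genes, with 2 called in each direction. Across 10917 genes with a transcript length and GC content, the CMA change correlated with GC content at a Spearman rho of -0.3 and with length at 0.128. After a length and GC trend was removed from each library, 110 members fell (40.7%) and 19 rose (7.04%), against 19.7% and 21.8% of all tested genes, with a member median of -0.43.

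Other zinc finger families were counted for comparison. Among 31 tested genes with a KRAB A-box under another name, 15 fell and none rose with CMA (median log2 change -0.67). Among 18 genes named Zfp with a letter after the number 9 fell and 1 rose, and among 18 Zscan and Zkscan genes 7 fell and 2 rose. Of 36 Zbtb genes 12 fell and 8 rose, and of 11 Klf genes 5 fell and 3 rose. Of all tested genes 17.9% fell and 19.4% rose. The list of other KRAB genes was made apart from the lists by name, so a gene can stand in more than 1 list. None of these lists was tested against the members. The plot of shares called gives them side by side.

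Of the KRAB co-repressor machinery, 28 of 29 listed genes were tested, and with CMA 5 fell (17.9%) and 4 rose (14.3%), at a median log2 change of -0.10. Of all tested genes 17.9% fell and 19.4% rose, so with CMA alone the list as a whole stood at or below the background. Setdb1, the histone methyltransferase that Trim28 recruits, fell from 976.9 ± 121.1 to 512.1 ± 11.92 normalised counts (SD, n = 3 each), a log2 change of -0.92 ± 0.14 (SE; limma adjusted p = 0.000108). Atf7ip, a partner that stabilises Setdb1, had -1.08 ± 0.23 (limma adjusted p = 0.00173), and the DNA methyltransferase Dnmt3a fell by 1.0 ± 0.12 on that scale (limma adjusted p = 1.16e-05). Pphln1, a subunit of the silencing complex known as HUSH, rose from 640.9 ± 21.97 to 1759 ± 109.7 normalised counts, a log2 change of 1.45 ± 0.13 (limma adjusted p = 7.01e-07). Hdac1 rose by 0.82 ± 0.11 on the log2 scale. Trim28 itself stood at 1122 ± 8.476 without stimulation and 1036 ± 71.54 with CMA, with a log2 change of -0.12 ± 0.13 (limma adjusted p = 0.523). It was higher with both agents than with CMA, by 0.39 ± 0.13 on the log2 scale (limma adjusted p = 0.0444). Against C-178 its change of 0.29 ± 0.13 did not pass the test (limma adjusted p = 0.12).

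The largest rise of a member with a mean level of at least 50 was that of Zfp800. It had 330.7, 302.7 and 320.1 normalised counts in the unstimulated libraries and 2940, 4982 and 4064 with CMA. It had 298.7, 361.4 and 361.8 with C-178, and 789.1, 2020 and 507.3 with both agents. All CMA libraries lay above every other library, and those with both agents lay above the unstimulated ones and varied among themselves. The log2 change with CMA was 3.62 ± 0.36 (SE; limma adjusted p = 2.42e-06), a 12.6-fold rise of the means. Zfp800 lies at chr6:28239927-28398005 on the minus strand of mm10, has 6 fingers by the searched spacing and no KRAB A-box.

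Zfp945, a KRAB member with 18 fingers, had 123.9, 118.2 and 118.9 normalised counts without stimulation and 522.5, 590.1 and 515.8 with CMA. With C-178 it had 125.9, 194.2 and 146.8, and with both agents 177.7, 235.6 and 229.2. The CMA libraries stood apart from all others, and the log2 change was 2.16 ± 0.17 (SE; limma adjusted p = 2.62e-07). Zfp213, a SCAN member with 5 fingers, had 52.46, 45.38 and 40.49 without stimulation, 42.31, 33.12 and 34.87 with C-178, 125.3, 177.6 and 168.9 with CMA and 151.2, 132.8 and 123.8 with both. Its 6 libraries with CMA all lay above its 6 libraries without, and the log2 change with CMA alone was 1.74 ± 0.19 (limma adjusted p = 6.14e-06). Both genes lie in the same cluster on chromosome 17, and the window of Zfp213 is the one shown with an interferon response element core, which starts 179 bases before the transcript start.

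Zfp281, known as a regulator of the pluripotency network in embryonic stem cells, had 679.6, 621.6 and 656.7 normalised counts without stimulation and 1510, 2214 and 2061 with CMA. With C-178 it had 550, 728.7 and 576.8, and with both agents 948.6, 1418 and 490.5. The CMA libraries were above all others, while the libraries with both agents ran from below the unstimulated range to near the lowest CMA library. The log2 change with CMA was 1.54 ± 0.29 (SE; limma adjusted p = 0.000662). The other named rises were Zfp777 (log2 change 1.30), Zfp811 (1.26), Zfp456 (1.22), Zfp319 (1.16), Zfp513 (1.05) and Zfp324 (0.90). Of these, Zfp777, Zfp811, Zfp456 and Zfp324 carry a KRAB A-box. Among the 18 members that rose and have a promoter window, 1 held the interferon response element core (5.56%) and 2 the NF-κB motif (11.1%). Of tested genes 3.47% and 1.88% held them. The cyclic AMP response element occurred in 1 of the 18, and the AP-1 motif and the E-box in 0. So few matches allow no conclusion about the rises.

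The largest fall of a member with a mean level of at least 50 was that of Zfp395, whose human counterpart is a hypoxia-induced DNA-binding protein. It had 546.6, 427.5 and 463.8 normalised counts without stimulation, 402.7, 414 and 473.7 with C-178, 54.39, 45.39 and 51.39 with CMA and 105.4, 95.67 and 100.8 with both agents. The groups with and without CMA were far apart, and both-agent libraries were all above the CMA libraries. The log2 change with CMA was -3.22 ± 0.14 (SE; limma adjusted p = 1.03e-09), a 9.51-fold fall of the means. Zfp467, known for promoting the adipocyte over the osteoblast fate, had 563.3, 532.6 and 497.3 without stimulation and 108.8, 73.03 and 93.61 with CMA. It had 506.7, 379.4 and 408.3 with C-178, and 216.5, 201.3 and 330 with both agents. Its log2 change with CMA was -2.54 ± 0.20 (limma adjusted p = 2.73e-07), and no library with CMA reached the lowest without it.

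Zfp217, whose human counterpart is a co-repressor partner amplified in breast cancer, was among the 5 members with the highest mean. It had 1867, 1810 and 1772 normalised counts without stimulation, 1376, 1549 and 1456 with C-178, 506, 671.1 and 629.6 with CMA and 800.7, 859.6 and 571.5 with both agents. The log2 change with CMA was -1.60 ± 0.15 (SE; limma adjusted p = 1.87e-06). Zfp703, whose human counterpart is a luminal breast cancer gene, had 634.8, 573.2 and 503 without stimulation, 549, 465.2 and 446.1 with C-178, 176.4, 165.8 and 161.5 with CMA and 138.9, 158.5 and 217 with both. Its log2 change was -1.75 ± 0.17 (limma adjusted p = 1.59e-06), and its libraries with CMA alone and with both agents overlapped. The other named falls were Zfp810 (log2 change -2.09), Zfp52 (-2.01), Zfp658 (-1.83), Zfp524 (-1.74), Zfp157 (-1.64) and Zfp608 (-1.52). Zfp810, Zfp52, Zfp658 and Zfp157 carry a KRAB A-box. Among the 70 members that fell and have a promoter window, none held the interferon response element core and 2 held the NF-κB motif (2.86%). Of tested genes 3.47% and 1.88% held them. The AP-1 motif occurred in 4 of the 70 (5.71%), the cyclic AMP response element in 3 (4.29%) and the E-box in 2 (2.86%). The shares of tested genes were 5.5%, 3.13% and 10.1%, and the differences were not tested.

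**Figure D2:**
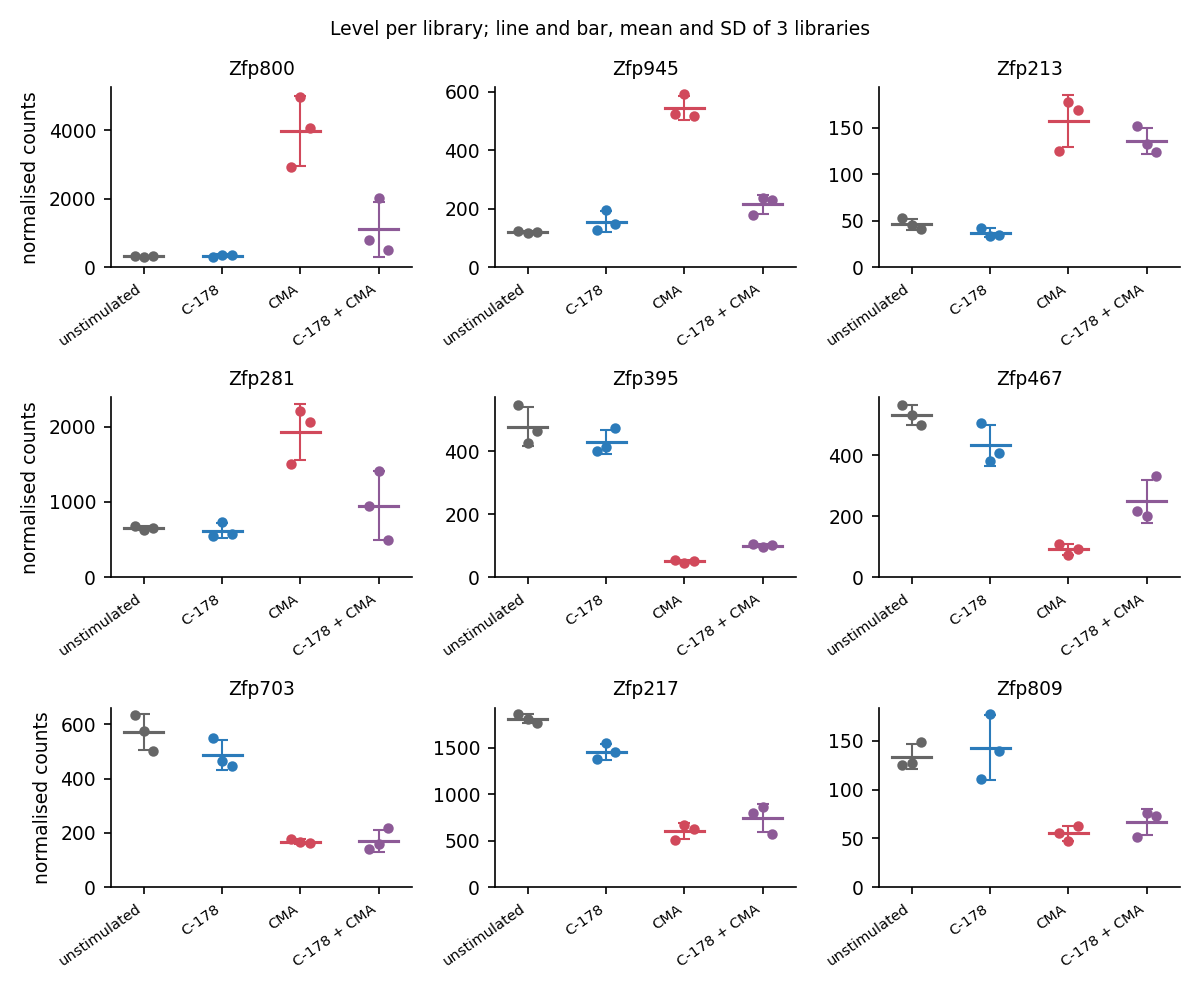
Normalised counts of 9 named members in each library (points), with the mean (line) and SD (bar) of the 3 libraries of a group, on linear axes from 0 that differ between panels. Zfp800, Zfp945 and Zfp281 are highest with CMA alone, Zfp213 is high in both groups with CMA, and the 5 members that fell are low in both groups with CMA.

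Members with a known function were looked up by name. Zfp809, which recognises the primer-binding site of murine leukaemia proviruses and recruits Trim28 to them, had 125.4, 127.8 and 148.7 normalised counts without stimulation and 56.04, 47.37 and 62.41 with CMA, a log2 change of -1.27 ± 0.21 (SE; limma adjusted p = 0.000294). It also fell with both agents against C-178, by 1.08 ± 0.21 on the log2 scale. Zfp445, a guardian of imprinted genes, had 1048 ± 30.63 and 999 ± 36.39 normalised counts without and with CMA (SD, n = 3), a log2 change of -0.07 ± 0.19. Zfp568, which represses a placental Igf2 transcript, had 113.2 ± 5.953 and 117.2 ± 7.225. Zfp568 fell with both agents against C-178, by 0.66 ± 0.23 on the log2 scale (limma adjusted p = 0.0481). Zfp57, the other imprinting factor looked up, was not a member.

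Several members that work outside silencing did not pass the test with CMA. Zfp91, a ubiquitin ligase of the non-canonical NF-κB pathway, had 1065 ± 102.1 normalised counts without stimulation and 1060 ± 43.81 with CMA (SD, n = 3). Zfp598, the ubiquitin ligase that senses collided ribosomes, had 402.8 ± 45 and 370.6 ± 20.4. Zfp207, a kinetochore protein that binds Bub3, had 2871 ± 84 and 3213 ± 65.5, and Zfp106, an RNA-binding protein, had 4497 ± 104.2 and 5239 ± 340.8. The libraries of Zfp106 and of Zfp207 did not overlap between these groups, but the log2 changes of 0.22 ± 0.19 and 0.16 ± 0.13 did not pass the test (limma adjusted p = 0.409 and 0.361). Per kilobase of transcript, Zfp207 had the highest mean of these at 1010 normalised counts, above Zfp106 at 510. Zfp148, Zfp410 (an activator of Chd4), Zfp341, Zfp326 (a subunit of a splicing and elongation complex), Zfp335 and Zfp622 (a ribosome assembly factor) had log2 changes with CMA between -0.38 and 0.03, none of which passed the test. Of these, Zfp326 fell with both agents against C-178, by 0.62 ± 0.18 on the log2 scale (limma adjusted p = 0.0224). Zfp131, a BTB-domain protein, rose by 0.88 ± 0.20 on the log2 scale (limma adjusted p = 0.00363).

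With C-178 alone, no member passed the test in either direction, against 0.0962% of all tested genes higher and 0.0% lower. At an unadjusted p under 0.05, limma found 5 members higher and 1 lower, against 2.08% and 1.59% of all tested genes. The quasi-likelihood test of edgeR and DESeq2, both run on recovered reads, called 0 members in either direction as well. When limma weighted the libraries by their quality, 26 members were higher (9.63%) and 10 lower (3.70%), against 7.19% and 8.97% of all tested genes in that fit. The median log2 change of the members was 0.10, with 92 members below 0, and it was 0.14 for KRAB members and 0.02 for the others. Groups did not overlap in 29 members that were higher and 7 that were lower, against 7.87% and 7.68% of all tested genes. The change with C-178 correlated over 10917 genes with transcript length at a Spearman rho of 0.373 and with GC content at -0.355, and the median of the members was 0.02 after the trend was removed. The part of length and GC in the single changes was not tested.

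The members with the smallest p for C-178 were Zfp317, Zfp655 and Zfp81 on the higher side and Zfp580, Zfp217 and Zfp771 on the lower. Zfp317 had 143.7, 148.7 and 167 normalised counts without stimulation and 191.5, 209.3 and 210.7 with C-178, a log2 change of 0.41 ± 0.15 (SE; limma adjusted p = 1.0). Zfp217 had the values given above, all 3 C-178 libraries lying below the unstimulated ones, with a log2 change of -0.32 ± 0.15 (limma adjusted p = 1.0). Neither passed the test, although the groups did not overlap. Both passed in 1 of 25 alternatives, the fit with libraries weighted by quality (limma adjusted p = 0.00189 for Zfp317 and 0.00611 for Zfp217).

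With C-178 present, more Zfp genes again fell than rose with CMA. Against C-178 alone, 88 of the 270 members fell (32.6%) and 9 rose (3.33%), while 12.6% of all tested genes fell and 13.5% rose. The median log2 change of the members was -0.43, with 233 below 0 and 37 above, against 0.01 for all tested genes. Groups did not overlap in 123 members that were lower and 12 that were higher, against 17.2% and 16.8% of all tested genes. Of the KRAB members 57 fell and 3 rose (median -0.55), and of the others 30 fell and 6 rose (median -0.29). The median was -0.16 for members with 0 to 4 fingers, -0.34 for 5 to 9, -0.53 for 10 to 14 and -0.54 for 15 or more. Across 10917 genes this change correlated with transcript length at a Spearman rho of -0.368 and with GC content at 0.146. After the trend was removed 72 members fell (26.7%) and 10 rose (3.70%), against 11.9% and 14.2% of all tested genes.

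The number of falls depended on the libraries fitted. When the fit held only the 6 libraries compared, 42 members fell and 3 rose, and without C-178 replicate 2, the library with the highest member median, 51 fell. Calls over all tested genes dropped as well, to 600 lower (5.24%) and 738 higher (6.45%) with the 6 libraries and to 885 lower (7.74%) without C-178 replicate 2, against 15.6%, 1.11% and 18.9% of the members. Quantile normalisation gave 9 members higher and a member median of -0.44, with 1892 of all genes lower and 1351 higher in place of 1440 and 1548. With the library number as a block over the 6 libraries compared, which their pairing allows, 83 members fell (30.7%) and 9 rose (3.33%). In that fit, chosen after seeing the data, 12.8% of all tested genes fell and 13.7% rose. A block over the 9 treated libraries gave 73 falls (27.0%) and 9 rises, against 10.6% and 12.2% of all tested genes. The CMA libraries in it did not pair by number throughout with the others.

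**Figure D3:**
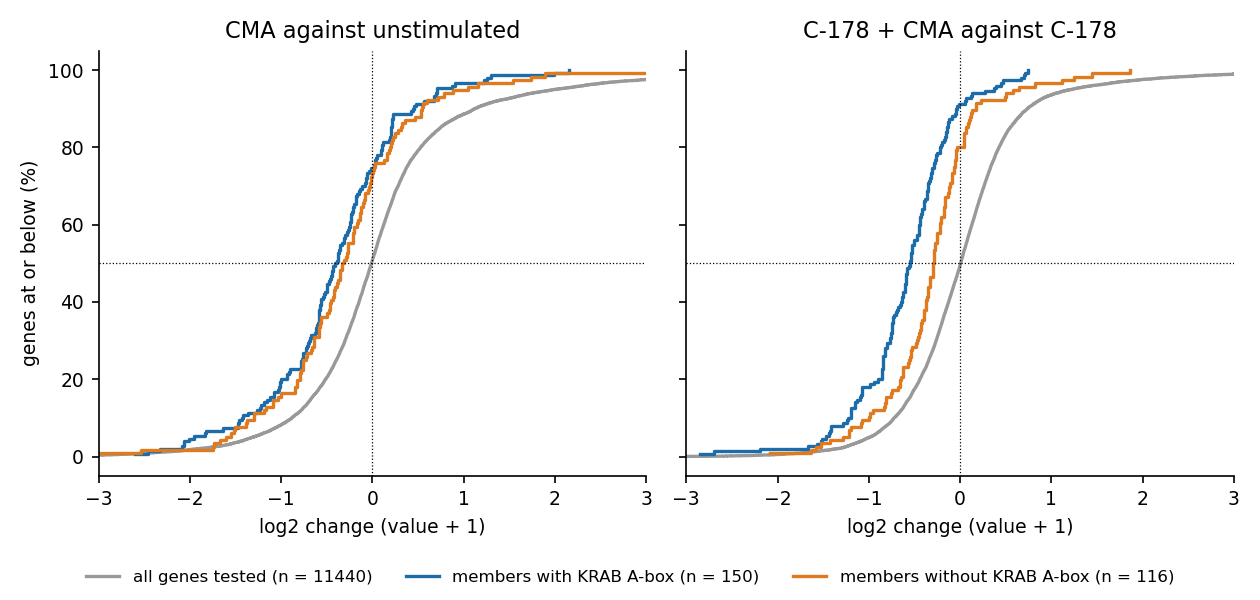
Percent of genes at or below each log2 change (x axis, cut at -3 and 3), for all tested genes, members with a KRAB A-box (n = 150) and members without one (n = 116). Both member curves lie to the left of the curve of all genes around the median, and they lie farther apart from each other in the right panel, where the medians are -0.55 and -0.29.

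Zfp213 was the largest named rise with both agents against C-178, with a log2 change of 1.86 ± 0.19 (SE; limma adjusted p = 7.67e-06). Next to it stood Zfp800 (1.45 ± 0.36, limma adjusted p = 0.00909), whose adjusted p was 0.0593 when only the 6 libraries compared were fitted. Zfp821 rose by 1.25 ± 0.15 on the log2 scale, from 177.5, 189.7 and 183.1 normalised counts with C-178 to 532.1, 441.2 and 357.5 with both agents. With CMA alone Zfp821 had 267, 232.9 and 236.8, so the libraries with both agents were above all others. Zfp319, Zfp691 and Zfp324 followed with 1.12, 0.82 and 0.75, and the calls of Zfp691 and Zfp324 were lost when only the libraries compared were fitted. Zfp691 also lost its call without C-178 replicate 2, C-178 replicate 3 or C-178 plus CMA replicate 2 and after the length and GC trend was removed, with limma adjusted p up to 0.0822. For Zfp324 the limma adjusted p reached 0.0543.

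The largest named falls with both agents against C-178 were those of Zfp395 (log2 change -2.08 ± 0.14, limma adjusted p = 1.58e-07), Zfp329, Zfp52, Zfp709, Zfp703 and Zfp608. Zfp329, the member shown with an AP-1 match 188 bases before its start, had 126.2, 180.7 and 133.7 normalised counts with C-178 and 48.41, 59.97 and 33.62 with both agents, a log2 change of -1.63 ± 0.26. With CMA alone it had 29.67, 47.37 and 55.07, against 127.7, 99.72 and 109.5 without stimulation. In both comparisons the libraries with CMA were all below those without. Zfp52 had -1.57, Zfp703 and Zfp709 had -1.52 each, and Zfp608 had -1.42 on the same scale.

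The comparison of CMA with unstimulated cells and that of both agents with C-178 share no library. Their calls nevertheless come from 1 fit over all 12 libraries with a pooled spread per gene, so the called lists are not separate evidence. The overlap was not counted from separate fits. Of the 84 members that fell in the first and the 88 that fell in the second, 52 were the same, which is 61.9% and 59.1% of the lists. Of the 19 and 9 that rose, 7 were the same (36.8% and 77.8%). Over all tested genes the shared falls were 43.5% and 61.9% of the lists, and the shared rises 43.1% and 61.9%. The log2 changes had the same sign in 207 of 270 members (76.7%) and in 7270 of all 11440 tested genes (63.5%). Their Pearson r was 0.646 and their Spearman rho 0.471 over the members, against 0.748 and 0.496 over all tested genes, given as a description over genes, which are not independent replicates. Zfp81 was called in opposite directions.

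**Figure D4:**
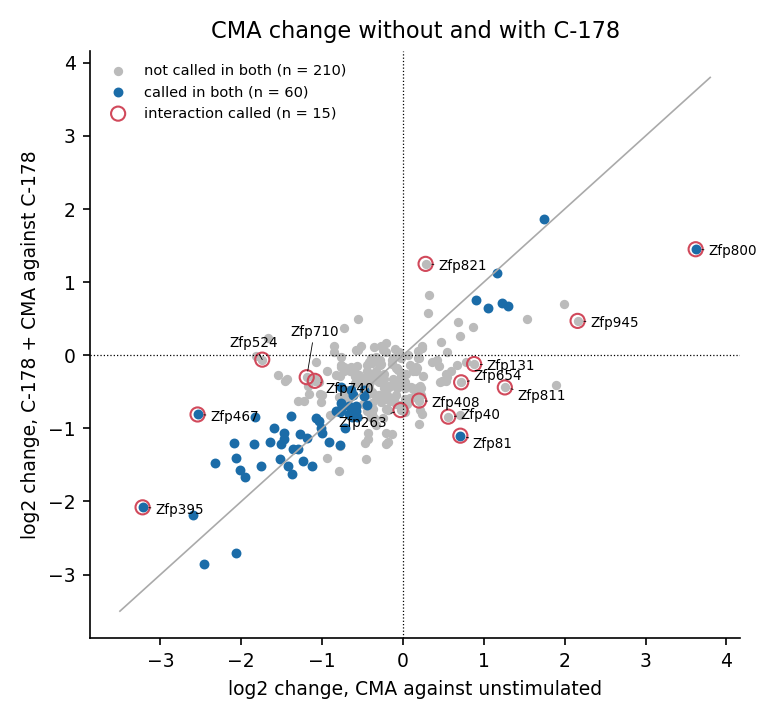
Log2 change of each of the 270 members with CMA against unstimulated cells (x axis) and with C-178 plus CMA against C-178 (y axis), 2 comparisons that share no library. The grey line marks equal change, blue points are the 60 members called in both, and red rings mark the 15 whose difference between the 2 changes was called.

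Between CMA alone and CMA with C-178, a smaller share of the members than of all tested genes was called, but removing a length and GC trend turned this around for the higher calls. Of 270 members 16 were higher (5.93%) and 17 lower (6.30%) with both agents than with CMA, against 10.6% and 13.5% of all tested genes. The median log2 change was 0.01, with quartiles at -0.30 and 0.29. Groups did not overlap in 32 members that were higher and 26 that were lower, against 17.0% and 18.5% of all tested genes. Of the KRAB members 7 rose and 9 fell, and of the others 9 rose and 8 fell. These counts were sensitive to single libraries: without CMA replicate 2 they were 10 and 9, without CMA replicate 3 they were 9 and 10, and without C-178 plus CMA replicate 2 there were 40 lower. The calls over all tested genes moved with them: 5.22% were higher and 6.53% lower without CMA replicate 2, 5.26% and 7.30% without CMA replicate 3, and 22.1% were lower without C-178 plus CMA replicate 2, against 14.8% of the members. Fitting only the 6 libraries compared gave 5 higher and 7 lower (1.85% and 2.59%), against 2.28% and 5.18% of all tested genes. Across 10917 genes this change correlated with length at a Spearman rho of -0.381 and with GC content at 0.421, and after the trend was removed 36 members were higher (13.3%) and 16 lower (5.93%), against 9.0% and 10.9% of all tested genes.

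Levels of the members that moved with CMA alone are set beside this comparison, which shares the CMA libraries with it, so that the values are not independent. The 19 members that rose with CMA had a median log2 change of -0.61 from CMA to both agents, and 9 of them fell. The 84 that fell with CMA had a median of 0.30, and 14 of them rose. With C-178 against unstimulated cells, the medians of these lists were 0.07 and 0.01, and that comparison shares the unstimulated libraries by which the lists were chosen.

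The named members lower with both agents than with CMA were Zfp800 (log2 change -2.07 ± 0.36, limma adjusted p = 0.00173), Zfp811 (-1.66), Zfp945 (-1.35), Zfp81 (-1.32), Zfp40 (-1.22) and Zfp281 (-1.13). The call of Zfp281 was lost without CMA replicate 2, without CMA replicate 3 and with only the 6 libraries fitted, where its limma adjusted p reached 0.077. Zfp811, a KRAB member with 13 fingers, had 257.1, 408.6 and 374.4 normalised counts with CMA and 76.59, 129.9 and 123.8 with both agents. It had 136.8, 149.3 and 139.2 without stimulation and 112.9, 170.1 and 161.3 with C-178, so the libraries with both agents lay below the unstimulated range. Zfp366, also known as DC-SCRIPT, a regulator of dendritic cells, had 14.83, 41.45 and 33.04 with CMA and 6.963, 11.42 and 0 with both. It entered the set through its CMA libraries, the group from which it fell, so the level rule already placed it high there, and its fall, counted among the 17 lower, is given as a description. It was chosen for naming after its values were seen.

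The named members higher with both agents than with CMA were Zfp467 (log2 change 1.41 ± 0.20, limma adjusted p = 0.000437), Zfp524 (1.34), Zfp395 (0.99), Zfp658 (0.91), Zfp472 (0.88) and Zfp740 (0.85). Zfp467 stood at a mean of 249.3 ± 70.34 with both agents, between 91.81 ± 17.94 with CMA and 431.5 ± 66.71 with C-178 (SD, n = 3). Zfp524 had 51.09, 45.39 and 44.05 normalised counts with CMA and 98.14, 81.39 and 217 with both agents, the last of which exceeded every unstimulated library (160.4, 157.6 and 156.3). The calls of Zfp658 and Zfp472 were lost without CMA replicate 3 and with only the 6 libraries compared (limma adjusted p up to 0.0888 and 0.0817). That of Zfp524 was lost with only the 6 libraries compared (limma adjusted p = 0.0506).

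Whether the change with CMA differed with and without C-178 was tested as an interaction. It was called positive in 6 members and negative in 9 (2.22% and 3.33%), against 3.95% and 5.99% of all tested genes. A negative value means that the CMA change was lower with C-178 present. None of the 6 positive members and 4 of the 9 negative ones carried a KRAB A-box. These counts, too, depended on single libraries: positive calls numbered 3 without unstimulated library a, 10 without C-178 replicate 1, 3 without CMA replicate 2 and 11 without C-178 plus CMA replicate 2. Negative calls numbered 5 without C-178 replicate 2, C-178 replicate 3, CMA replicate 2 or CMA replicate 3, and 36 without C-178 plus CMA replicate 2. In that last fit 17.6% of all tested genes had a negative and 14.7% a positive interaction, against 13.3% and 4.07% of the members. In the other fits named, positive calls were 1.07% of all tested genes without unstimulated library a, 5.17% without C-178 replicate 1 and 1.17% without CMA replicate 2, and negative calls 1.83% to 3.30%. After the length and GC trend was removed, 12 members had a positive interaction (4.44%), against 2.78% of all tested genes. Over 10917 genes the interaction correlated with length at a Spearman rho of -0.433 and with GC content at 0.467.

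Zfp81, a KRAB member with 11 fingers, had the clearest opposite changes. It had 51.69, 41.2 and 39.23 normalised counts without stimulation and 75.82, 69.08 and 71.58 with CMA, but 49.84, 69.26 and 68.29 with C-178 and 25.53, 34.27 and 25.98 with both agents. CMA libraries lay above the unstimulated ones, and both-agent libraries lay below the C-178 ones. The log2 changes were 0.71 ± 0.21 and -1.10 ± 0.21, and the interaction was -1.81 ± 0.30 (SE; limma adjusted p = 0.00356). Zfp710, among the most abundant members, had 3828, 3664 and 3341 without stimulation and 1696, 1451 and 1595 with CMA, but 3390, 3321 and 3236 with C-178 and 2640, 2863 and 2569 with both. Its interaction was 0.89 ± 0.15 (limma adjusted p = 0.00448), with log2 changes of -1.19 ± 0.11 and -0.30 ± 0.11.

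Most clusters held members that were called and members that were not. With CMA alone, 24 of the 35 clusters held at least 1 member that fell, 9 held at least 1 that rose, 8 held both and 10 held neither. Of all 270 members 31.1% fell and 7.04% rose with CMA, and 32.6% fell with both agents against C-178. Clusters of 2 members made up 13 of the 35, and whether falls gather by cluster was not tested. In 3 clusters every member fell with CMA: Zfp715, Zfp658 and Zfp719 on chromosome 7, Zfp710 and Zfp592 on the same chromosome, and Zfp12 and Zfp316 on chromosome 5. With both agents against C-178, every member fell in 2 clusters, that of Zfp715, Zfp658 and Zfp719 again and that of Zfp326 and Zfp644. At chr8:71882019-71993792, with Zfp709, Zfp882, Zfp617 and Zfp961, 3 of 4 fell in both comparisons. The largest, at chr17:21008903-23564238, has 19 members, 18 of them with a KRAB A-box, and 4 fell and 2 rose, the latter being Zfp945 and Zfp213. With both agents against C-178, 8 of the 19 fell and 1 rose. At chr13:67038596-67827002, where all 17 members carry a KRAB A-box, 4 fell and 3 rose with CMA. At chr17:32765496-33631779, which holds Zfp811, Zfp81 and Zfp472, 4 of 11 fell and 3 rose. At chr7:6131491-7209998 none of 10 members was called in either comparison, with a median log2 change of -0.17 with CMA. At chr7:127233061-127885996, where 4 of 10 members carry a KRAB A-box, 5 fell and none rose, with a median of -0.72.

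The spread of the members between libraries differed by group. The median SD of the log2 level over the 3 libraries was 0.142 without stimulation, 0.221 with C-178, 0.222 with CMA and 0.322 with both agents. Between libraries of a group, counts of all tested genes differed by more than sampling noise in every pair, with a chi-square per gene of 2.351 to 114.537, so no library was counted as a repeat of another.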

How the data were processed

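Values are the deposited signal per gene and library, normalised counts. The submitters' processing notes name the build mm10 and the tools Bowtie2 2.2.1 and limma 3.18.13, with no role given. The sources used here do not give the counting tool, its annotation or its strand setting. The kit was a stranded TruSeq mRNA kit, per the labels' protocols, whose extraction text speaks of MEF cells while the other labels say macrophages. In each deposited column 100.0% of values were whole multiples of 1 step (tolerance 0.01), taken as reads, and another 12 columns, of Cook's distances, stayed unused. A pair of unstimulated columns carries the same heading, so these libraries are called a and b.

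Of 24062 entries, the 11440 above 10 in at least 3 of 12 libraries were tested. Log2 of value + 1 was fitted with limma 3.58.1 under R 4.3.3 (lmFit, eBayes with trend) over all 12 libraries, with no covariate. P values were adjusted by Benjamini and Hochberg over all tested genes, and calls were made at an adjusted p under 0.05. Fold changes on this scale understate those of low genes. edgeR 4.0.16 (quasi-likelihood) and DESeq2 1.42.0 on recovered reads served as alternatives, beside other pseudocounts, filters, scalings, thinning, library weights, a length and GC trend, a replicate block and leaving out each library. The fit was tested on simulated data. Counts of calls and plots were made in Python 3.11.15 (matplotlib 3.10.9, numpy 2.4.6, pandas 2.3.3). Reads per library were 7.05 to 36.4 M.

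Positions, lengths and coding sequences came from GENCODE for mm10. A KRAB A-box needed 11 of 14 consensus positions and a SCAN box 14 of 23. Fingers were counted by spacing (2 to 4 residues between the cysteines, 12 in the middle, 3 to 5 between the histidines). Members within 1 Mb formed a cluster. Members, lists and tests were chosen with earlier results of these data known. Named members were the largest called changes with groups that did not overlap and a mean of at least 50 (10 each way for CMA, 6 each way for the other comparisons with CMA), the 5 largest interactions each way, the 3 smallest p each way for C-178, the 5 highest means, those beside the level threshold and a list with known functions.

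Libraries of C-178 and C-178 plus CMA with the same number deviated together over the tested genes (r = 0.4504, 0.4268 and 0.263), each past the minimum of 0.1. They were treated as pairs only in the alternatives with a replicate block. The main fit, from which the reported counts and p values come, did not pair them. The pairing comes from the data and the numbers in the labels, which name no shared culture.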

Additional observations from a re-analysis of the deposited data

Results flagged for a closer look

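In 15 members the CMA change differed with and without C-178 by the interaction test of limma at an adjusted p under 0.05, which flags them here. The interaction, on the log2 scale, was negative for Zfp800 (-2.16), Zfp81 (-1.81), Zfp811 (-1.70), Zfp945 (-1.69), Zfp40 (-1.40), Zfp654 (-1.09), Zfp131 (-1.0), Zfp408 (-0.82) and Zfp263 (-0.72). It was positive for Zfp467 (1.72), Zfp524 (1.68), Zfp395 (1.14), Zfp821 (0.97), Zfp710 (0.89) and Zfp740 (0.75).

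Zfp800, Zfp40, Zfp524 and Zfp821 lost the call in 6, 7, 6 and 3 of the alternatives run, with adjusted p up to 0.0683, 0.117, 0.0669 and 0.196. For Zfp800 these were leaving out unstimulated library a, C-178 replicate 2 or 3, CMA replicate 2 or 3, or the 2 deepest libraries together. For Zfp40 they were leaving out unstimulated library 1 or b, C-178 replicate 2 or 3 or CMA replicate 2 or 3, and removing the length and GC trend. For Zfp524 they were leaving out any unstimulated library, C-178 replicate 2 or CMA replicate 2 or 3. For Zfp821 they were leaving out unstimulated library a or CMA replicate 2, and removing the trend. Zfp81, Zfp811, Zfp945, Zfp467, Zfp395 and Zfp710 kept the call in all 24 alternatives run for the interaction. For Zfp654, Zfp131, Zfp408, Zfp263 and Zfp740 the call was not followed gene by gene. The counts of calls without CMA replicate 2 show that Zfp740 and some of the others lost it there. Zfp408 had 174 ± 5.419 normalised counts with both agents, against 250.3 ± 13.69 without stimulation, 268.1 ± 4.422 with C-178 and 287.4 ± 23.26 with CMA (SD, n = 3), and Zfp263 had 466.7 ± 15.62 against 694.2 ± 40.82, 786.3 ± 84.14 and 683.6 ± 99.63. Zfp740 had 810.7 ± 54.12 with both agents and 449.3 ± 42.8 with CMA.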

How the results depend on the processing

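Of 254 member counts under 27 alternatives, 227 stayed within 1.5 times the count reported. Array weights gave 42 higher and 144 lower with CMA, 26 and 10 with C-178, and 17 and 30 for the interaction, beside 3672 and 3708, 823 and 1026, and 1438 and 1673 of all 11440 tested genes. Fitting only the groups compared gave 5 higher and 7 lower from CMA to both agents, and 3 and 42 from C-178 to both, beside 261 and 593, and 738 and 600, of all genes. Removing a length and GC trend gave 36 higher from CMA to both agents and 12 positive interactions (13.3% and 4.44% of members, 9.0% and 2.78% of all genes), where the shares without this step were 5.93% and 2.22% of members and 10.6% and 3.95% of all genes. Quantile normalisation moved the median log2 change of all genes with CMA to -0.11, with 1953 genes higher and 2667 lower, and that of the members to -0.36.

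Leaving out 1 library gave 15 to 24 higher and 63 to 99 lower with CMA, and 0 in either direction with C-178. It gave 9 to 23 higher and 9 to 40 lower from CMA to both agents, 7 to 11 and 51 to 108 from C-178 to both, and 3 to 11 positive and 5 to 36 negative interactions. Calls over all 11440 tested genes were 1761 to 2652 higher and 1536 to 2500 lower with CMA. From CMA to both agents they were 597 to 2179 and 747 to 2532, and from C-178 to both 1056 to 2114 and 885 to 2067. All-gene interactions numbered 122 to 1681 positive and 209 to 2018 negative. With a replicate block over the 9 treated libraries, 11 members were higher and 18 lower from CMA to both agents, and 9 and 73 from C-178 to both. These stood beside 987 and 1393, and 1394 and 1207, of all genes. The CMA libraries in that block did not pair by number throughout with those of the other groups. With only the 6 libraries compared, an alternative chosen after seeing the data, the block gave 9 and 83 from C-178 to both, beside 1563 and 1460 of all genes. No count moved past 1.5 times under the block. No paired analysis was possible for comparisons with unstimulated cells because 2 of their columns carry 1 heading.

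Without the 2 deepest libraries, also chosen after seeing the data, 23 members were higher and 86 lower with CMA, and 8 and 64 from C-178 to both agents. These stood beside 2413 and 2237, and 1253 and 1143, of all genes. Of 60 results for single genes, 43 kept their call under every alternative run, and no called change reversed. The cause of these differences was not tested. Depth limits the lowest members, where 3 reads correspond to as much as 5.92 normalised counts, in CMA replicate 2 with 7.13 M reads. In C-178 replicate 3, the shallowest library with 7.05 M reads, they correspond to 4.36.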
